A study of Mus musculus with 29 samples.

Results

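The experiment asked whether the 5xFAD transgenes changed the microglial translatome differently in mice whose microglial eIF2α cannot be phosphorylated than in mice with normal eIF2α. It comprised 16 of the 29 libraries of the series, chosen by their labels as the 4 groups without an iPKR construct, and the quantity measured was a difference of differences. The change of 5xFADEif2A over Eif2A mice was set against the change of 5xFADTRAP over TRAP mice, gene by gene, and is called the interaction below. A positive interaction means that a gene rose more, or fell less, with 5xFAD on the Eif2A background.

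Each library was ribosome-bound RNA from the cortex of a 6-month-old mouse, pulled down through an eGFP tag on the ribosomal protein L10a. The 5xFADEif2A group (n = 3) carried 5xFAD, Cx3cr1CreErt2/+, Eif2s1A/A, Tg(Eif2s1) and Eef1a1LSL.eGFPL10a/+, and the Eif2A group (n = 4) carried the same alleles without 5xFAD. The 5xFADTRAP group (n = 4) carried 5xFAD, Cx3cr1CreErt2/+ and Eef1a1LSL.eGFPL10a/+, and the TRAP group (n = 5) carried the last 2 of these. All mice received 6 doses of tamoxifen at 100 mg/kg, which activates the Cre recombinase. The 5xFADTRAP mice also received the growth factor VEGF at 1 µg/kg and the drug ASV at 5 mg/kg for 4 weeks, and the mice of the other 3 groups did not. The interaction therefore holds the drug treatment of 5xFADTRAP as well as the Eif2s1 allele, and the design cannot tell them apart. The tag and the allele depend on Cre driven from the Cx3cr1 locus, which is active in microglia and in other macrophages of the brain. The Eif2s1 transgene is floxed in the series' design text, so other cells keep it beside the A/A allele. For the Eif2A genotypes the tag is listed in the sample labels but not in the description of the series.

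The integrated stress response starts when a kinase phosphorylates eIF2α, the product of Eif2s1. Phosphorylated eIF2α slows the start of translation for most mRNAs, while the mRNA of the transcription factor ATF4 is translated more, and ATF4 then raises genes of amino acid supply and stress defence. The serine-to-alanine allele of Eif2s1 removes the phosphorylation site, so all kinases of the pathway lose this target. The group name Eif2A refers to that allele and not to the separate gene Eif2a. In 5xFAD mice, which form amyloid plaques, microglia near plaques are known to take on a disease-associated state with high lipid, lysosomal and phagocytic gene expression.

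Library totals were 7.059 to 7.629 M counts in 5xFADEif2A, 4.035 to 21.367 M in Eif2A, 2.052 to 4.903 M in 5xFADTRAP and 3.511 to 10.864 M in TRAP. Counts are given below as CPM, that is counts relative to the library total after TMM scaling, unless they are said to be per library total. The 9 defining microglial markers found in the table together took 1.32% to 1.38% of counts in 5xFADEif2A, 1.03% to 1.24% in Eif2A, 1.13% to 1.32% in 5xFADTRAP and 1.07% to 1.29% in TRAP, and none of them was at 0. In TRAP replicate 2 the level of Cx3cr1 was 15.0 CPM, against 547 to 638 CPM in the other 4 TRAP libraries. Counts of Y-linked genes went against the labelled sex in Eif2A replicate 3, labelled male, with 0.234 CPM per library total, and in Eif2A replicate 4, labelled female, with 144 CPM per library total.

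The labelled batch and the read counts disagreed for the 3 5xFADEif2A libraries. The lncRNA gene Gm26561 was at 203 to 477 CPM per library total in 10 of the 29 libraries and at 16.5 to 70.1 CPM in the other 19, with no library between. The processed pseudogene Gm5829 divided the 29 libraries in the same way, with 0 to 1.43 CPM per library total in those 10 and 5.41 to 29.3 CPM in the other 19. In TRAP and 5xFADTRAP this division was the labelled batch: the 3 libraries labelled batch 2 (TRAP replicate 5 and 5xFADTRAP replicates 3 and 4) were high in Gm26561 and the 6 labelled batch 1 were low. All 3 5xFADEif2A libraries were labelled batch 1 and were high in Gm26561, and all 4 Eif2A libraries were labelled batch 1 and were low. Of the 29 libraries, 5 were on the side opposite to their labelled batch: these 3, and 2 iPKR libraries labelled batch 2 (ASV-treated replicates 4 and 5) that were low in Gm26561, at 70.1 and 38.7 CPM per library total. Some other genes that separated the labelled batches did not follow this division. Bcor, a transcriptional corepressor, had 75.3, 285 and 208 CPM in 5xFADEif2A libraries, against 96.6, 239, 259 and 174 CPM in Eif2A libraries, and it had 78.5, 62.6, 441 and 1390.3 CPM in 5xFADTRAP libraries, against 241, 278, 110.4, 268 and 1664 CPM in TRAP libraries. Within these 16 libraries the 3 labelled batch 2, at 441 to 1664 CPM, were above all others. The 5xFADEif2A levels were near those of the other libraries labelled batch 1. Over all 29 libraries Bcor did not divide by label. It had 1712 and 1693 CPM per library total in iPKR vehicle replicates 1 and 2, labelled batch 1, against 437 in 5xFADTRAP replicate 3. Over the 9 TRAP and 5xFADTRAP libraries, 351 of 13891 genes (2.53%) differed by labelled batch (edgeR's quasi-likelihood test, adjusted p below 0.05). Of the 350 also tested here, 38.0% were nearer to batch 2 than to batch 1 in 5xFADEif2A and 37.4% in Eif2A. The batch means compared held unlike shares of 5xFAD libraries, so these percentages cannot tell which batch 5xFADEif2A belongs to. Since labels and counts disagreed, interactions are given with batch as labelled and, for many genes, also with the 3 5xFADEif2A libraries coded as batch 2. This alternative coding was chosen after the data were seen. Unless said otherwise, a value given alone is with batch as labelled. The alternative value equals the labelled interaction minus the batch coefficient, the fitted difference of batch 2 from batch 1. Both values come from 1 fit and are not independent.

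**Figure D1:**
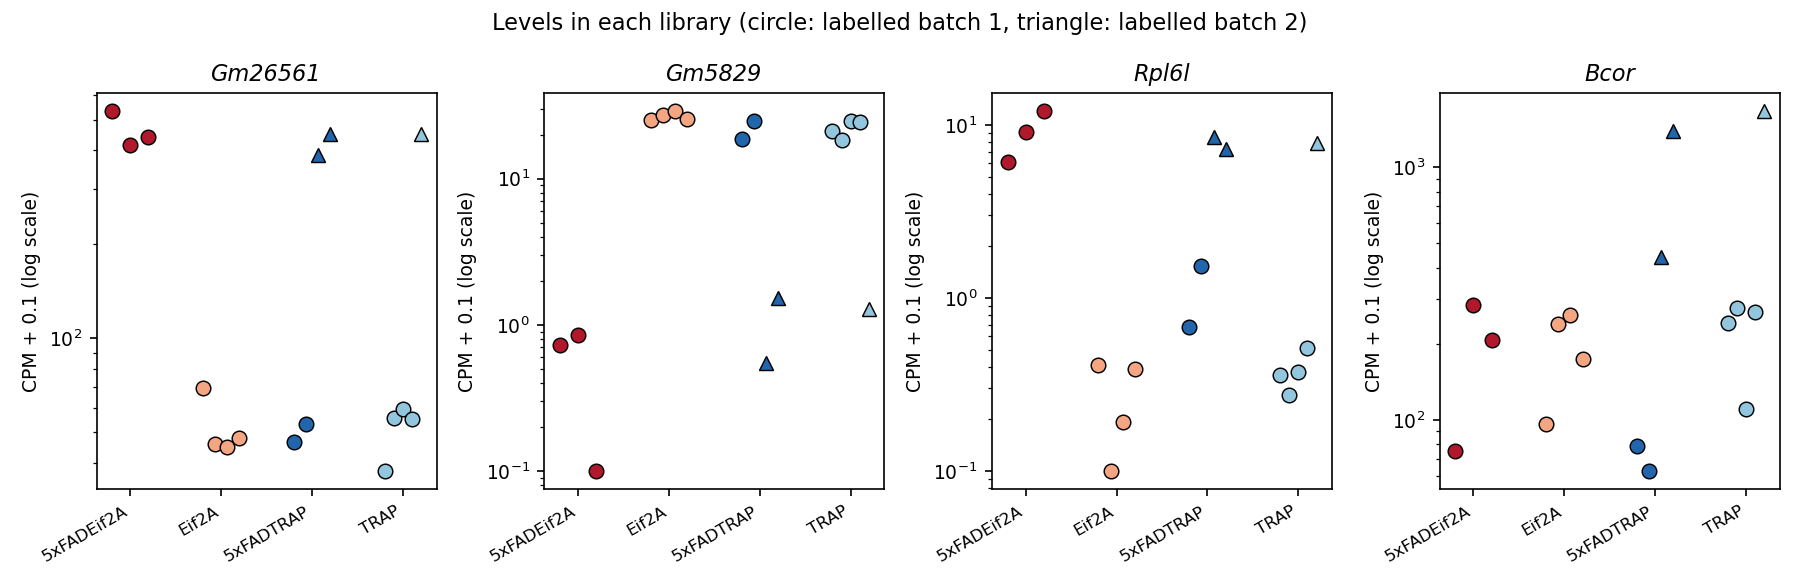
Levels of Gm26561, Gm5829, Rpl6l and Bcor in each of the 16 libraries, by group, as CPM plus 0.1 on a log scale. Circles are libraries labelled batch 1 and triangles libraries labelled batch 2. The 5xFADEif2A circles lie with the triangles for Gm26561, Gm5829 and Rpl6l, and with the other circles for Bcor.

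The genes with the largest fitted interactions include copies of other genes made by reverse transcription. Gm5829 and Rpl6l are shown with the gene they resemble, because reads of one can be taken for the other except over the bases in capitals, where the pair differs. Each stretch lies inside the coding sequence of the gene resembled and reads 5′ to 3′ (transcripts of GENCODE M21, mm10). Gm5829 (chr1:71709705-71710055, minus strand) is 96.6% identical to Gabarapl2 (chr8:111940703-111953612, plus strand), an autophagy gene, over its 351 bases.
Gm5829: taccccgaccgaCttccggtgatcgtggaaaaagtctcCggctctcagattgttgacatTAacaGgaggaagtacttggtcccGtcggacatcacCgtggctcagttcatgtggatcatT
Gabarapl2: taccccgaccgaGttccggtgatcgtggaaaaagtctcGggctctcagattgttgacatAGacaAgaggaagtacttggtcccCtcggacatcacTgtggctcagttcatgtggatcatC
Rpl6l (chr10:111125851-111126721, plus strand) is 98.7% identical over 871 bases to Rpl6 (chr5:121204481-121209241, plus strand), which encodes a protein of the large ribosomal subunit.
Rpl6l: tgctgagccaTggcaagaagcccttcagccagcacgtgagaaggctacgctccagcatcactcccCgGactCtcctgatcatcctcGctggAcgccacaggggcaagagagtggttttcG
Rpl6: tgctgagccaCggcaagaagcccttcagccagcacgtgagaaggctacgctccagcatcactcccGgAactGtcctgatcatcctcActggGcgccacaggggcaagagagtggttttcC
Of the 120 bases shown, 8 differ between Gm5829 and Gabarapl2 and 7 between Rpl6l and Rpl6. Of the 41 called genes with a GENCODE transcript, 14 had at least 20% of that transcript in a near copy elsewhere (at least 95% identity over at least 75 bases), or 34.1%, against 8.97% of the 13405 tested genes with a transcript. How the deposited counting treated reads that fit several genes is not given in the sources used here, so counts of these 14 genes are uncertain between copies.

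With batch as labelled, 42 of 13800 genes (0.304%) had an interaction at an adjusted p below 0.05 (edgeR's quasi-likelihood F-test with group, batch and sex, Benjamini-Hochberg adjustment). The interaction was positive for 23 genes (0.167%) and negative for 19 (0.138%), and 1262 genes had an unadjusted p below 0.05. Upper-quartile scaling gave 16 positive and 21 negative calls. The changes with 5xFAD mostly had the same direction on both backgrounds. Of 958 genes called for 5xFADTRAP over TRAP (6.94%), 922 had the same sign for 5xFADEif2A over Eif2A. The TRAP calls were 566 higher (4.10%) and 392 lower (2.84%). On the Eif2A background 2090 genes were called (15.1%), of which 1200 were higher (8.70%) and 890 lower (6.45%), and 666 genes were called with the same sign on both backgrounds, which is 69.5% of the TRAP calls and 31.9% of the Eif2A calls. With upper-quartile scaling the Eif2A calls were 964 higher and 1233 lower. The number of interaction calls rested on single libraries. It was 9 without 5xFADTRAP replicate 1, 15 and 17 without replicates 2 and 3 of that group, and 22, 12 and 19 without 5xFADEif2A replicates 1, 2 and 3. It was 24 and 26 without Eif2A replicates 1 and 2, 26 and 18 without TRAP replicates 2 and 5, and 64 without TRAP replicate 1.

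**Figure D2:**
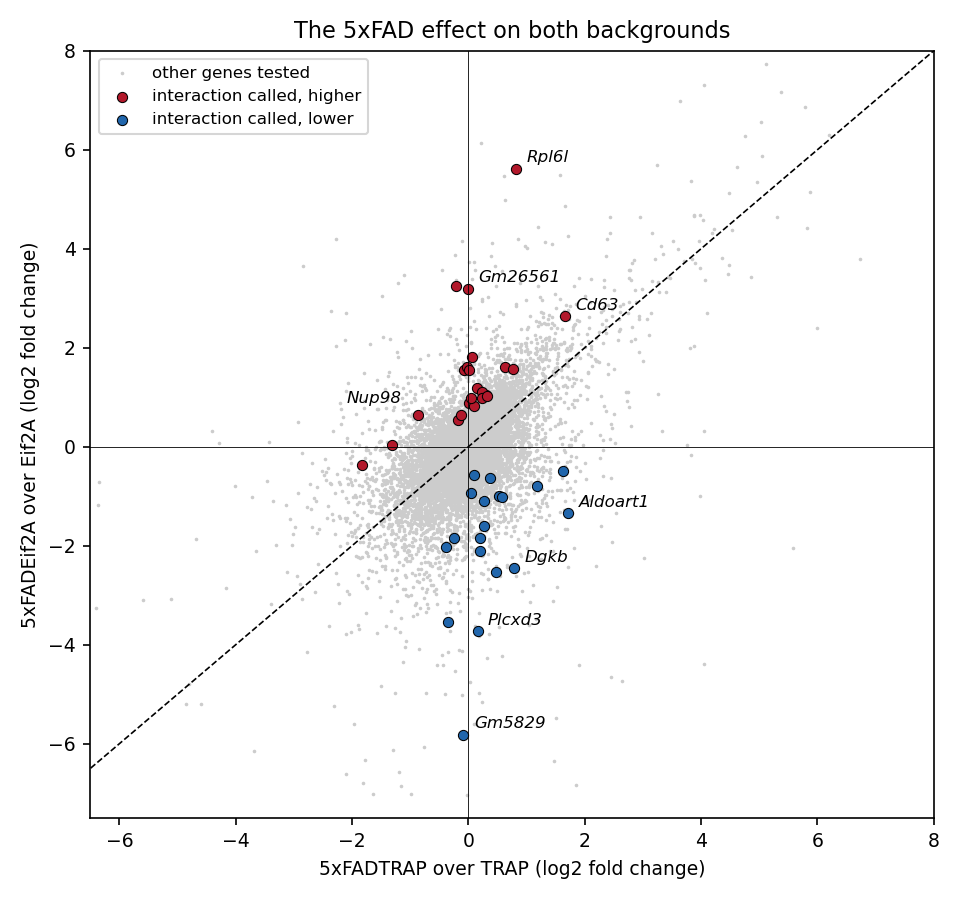
The log2 fold change of 5xFADEif2A over Eif2A against that of 5xFADTRAP over TRAP for the genes tested, with the 42 interaction calls in red (positive, 23) and blue (negative, 19). The dashed line marks equal effects, and 1 gene lies outside the axes.

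Of the 42 calls, 38 also passed the test on the Eif2A background alone, against 15.1% of all genes, and 11 on the TRAP background alone, against 6.94%. The larger absolute change was on the Eif2A background for 36. The interaction is the difference of these changes in the same fit, so large changes among its calls are partly built in. The batch coefficient of the same fit was itself called for 30 of the 42 genes, against 860 of 13800 genes (6.23%; 439 higher in batch 2, 3.18%, and 421 lower, 3.05%), and had the sign of the interaction in 42 of 42, against 58.6% of all genes. The agreement of sign is partly built in. Libraries labelled batch 2 were 1 of 5 in TRAP and 2 of 4 in 5xFADTRAP, so the interaction contains part of the batch coefficient. The other 12 of the 42 genes, whose batch coefficient was not called, are described first.

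The 7 positive calls among these 12 included the lysosomal genes Cd63 and Pla2g15, the ER chaperone gene Hspa5 and the ferritin gene Ftl1. Cd63 (chr10:128900989-128912822), a tetraspanin of late endosomes and lysosomes and a marker of the disease-associated state, had 1934, 1845 and 1770.0 CPM in 5xFADEif2A libraries, against 347, 241, 288 and 367 CPM in Eif2A libraries. It had 889, 1049, 1360.3 and 1049 CPM in 5xFADTRAP libraries, against 248, 277, 337, 298 and 537 CPM in TRAP libraries. The groups did not overlap on either background, and the 5xFADEif2A levels were above all 5xFADTRAP levels. The interaction of Cd63 was 0.99 ± 0.16 (SE; adjusted p = 0.0116) by edgeR, with log2 fold changes of 2.64 on the Eif2A and 1.65 on the TRAP background. Leaving out TRAP replicate 5, 5xFADTRAP replicate 1 or 5xFADEif2A replicate 2 took its adjusted p to 0.0541, 0.0553 and 0.0623 in edgeR, and the other 13 omissions kept the call.

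Hspa5 (chr2:34771970-34777547), which encodes the ER chaperone BiP, had 485, 627 and 621 CPM in 5xFADEif2A libraries, against 275, 277, 246 and 217 CPM in Eif2A libraries. On the TRAP background it had 288, 339, 479.5 and 455 CPM in 5xFADTRAP libraries, against 268, 353, 348, 262 and 342 CPM in TRAP libraries. The Eif2A groups were apart, while 5xFADTRAP and TRAP overlapped. Its interaction was 1.03 ± 0.20 (SE; adjusted p = 0.0293) by edgeR, and 10 of the 16 omissions of a library kept the call. Without TRAP replicate 2, 5xFADTRAP replicates 1 or 2, Eif2A replicate 4, or 5xFADEif2A replicates 2 or 3, the adjusted p was 0.0514 to 0.142 in edgeR. Dnajb6, a cochaperone of cytosol and nucleus, had an interaction of 0.72 with an adjusted p of 0.0343 in edgeR, kept in 5 of 16 omissions. Its levels were 178, 175 and 163 CPM in 5xFADEif2A libraries, against 103, 100.4, 97.6 and 90.6 CPM in Eif2A libraries, and on the TRAP background 99.4, 106, 122 and 135 CPM in 5xFADTRAP libraries, against 97.7, 107, 107, 93.7 and 109 CPM in TRAP libraries. For Dnajb6, too, the groups were apart on the Eif2A background.

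Ftl1, the light chain of the iron store ferritin, had 452, 405 and 418 CPM in 5xFADEif2A libraries, against 234, 226, 184 and 224 CPM in Eif2A libraries. The TRAP background gave 219, 233, 308 and 308 CPM in 5xFADTRAP libraries, against 202, 282, 199, 187 and 308 CPM in TRAP libraries. The interaction was 0.93 ± 0.18 (SE; adjusted p = 0.0276) by edgeR, kept in 9 of 16 omissions. The Ftl1 levels of 5xFADTRAP and TRAP overlapped, and the highest TRAP level was in replicate 5, labelled batch 2. Pla2g15, a lysosomal phospholipase, had 347, 351 and 384 CPM in 5xFADEif2A libraries, against 147, 156, 195 and 171 CPM in Eif2A libraries. For comparison it had 189.8, 229, 271 and 278 CPM in 5xFADTRAP libraries, against 186, 152, 209.8, 168 and 232 CPM in TRAP libraries. Its interaction was 0.88 ± 0.17 (SE; adjusted p = 0.0306) by edgeR, and 6 of 16 omissions kept the call. The highest Eif2A level of Pla2g15 was far below the lowest 5xFADEif2A level, while 5xFADTRAP and TRAP overlapped.

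Shisa5, a membrane protein of the ER and the nuclear envelope, had 513, 485 and 508 CPM in 5xFADEif2A libraries, against 138, 148, 199 and 169 CPM in Eif2A libraries. It had 253, 285, 299 and 413 CPM in 5xFADTRAP libraries, against 143, 177, 213, 161 and 227 CPM in TRAP libraries. The groups were apart on both backgrounds, and the 5xFADEif2A levels were above every 5xFADTRAP level. The interaction of Shisa5 was 0.98 ± 0.20 (SE; adjusted p = 0.0466) by edgeR, kept in 4 of 16 omissions. Pebp1, an inhibitor of Raf kinase, had 249, 197 and 193 CPM in 5xFADEif2A libraries, against 109, 103, 92.5 and 121 CPM in Eif2A libraries, and 107, 108, 155 and 137 CPM in 5xFADTRAP libraries, against 81.2, 108, 109, 82.4 and 119.8 CPM in TRAP libraries. Its interaction was 0.74 ± 0.15 (SE; adjusted p = 0.0481) by edgeR, kept in 2 of 16 omissions. Pebp1 was apart between the Eif2A groups and overlapped between 5xFADTRAP and TRAP.

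Negative interactions among the 12 were led by Rictor, Plcxd3 and Cadps. Rictor (chr15:6708379-6800401), the defining subunit of mTOR complex 2, had 14.0, 17.0 and 12.9 CPM in 5xFADEif2A libraries, against 24.3, 27.2, 37.0 and 26.3 CPM in Eif2A libraries. The TRAP background showed 39.7, 43.0, 27.8 and 29.9 CPM in 5xFADTRAP libraries, against 27.7, 28.1, 16.4, 28.9 and 18.8 CPM in TRAP libraries. On the Eif2A background the groups did not overlap and 5xFADEif2A was lower, while the 5xFADTRAP libraries overlapped TRAP and included the highest levels of all. The interaction was -1.60 ± 0.26 (SE; adjusted p = 0.0116) by edgeR, between a log2 fold change of -1.02 on the Eif2A background and one of 0.58 on the TRAP background that was not called (adjusted p = 0.0637 in edgeR). Leaving out 5xFADTRAP replicates 1 or 2 or 5xFADEif2A replicate 3 took the adjusted p to 0.0607, 0.0550 and 0.0516 in edgeR.

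Plcxd3, a protein with a phospholipase C domain, had 1.10, 1.36 and 2.02 CPM in 5xFADEif2A libraries, against 25.1, 25.5, 21.8 and 9.11 CPM in Eif2A libraries. It had 6.95, 9.55, 5.19 and 2.05 CPM in 5xFADTRAP libraries, against 8.27, 7.41, 11.9, 7.63 and 2.2 CPM in TRAP libraries. Its interaction was -3.88 ± 0.60 (SE; adjusted p = 0.00688) by edgeR and was kept in all 16 omissions. The 5xFADEif2A libraries held 30 counts of Plcxd3 in all, which limits its precision. The level in TRAP replicate 5 and in 5xFADTRAP replicate 4 was close to that of 5xFADEif2A. Cadps, which primes dense-core vesicles for release, had 11.5, 9.35 and 6.21 CPM in 5xFADEif2A libraries, against 11.6, 18.2, 16.3 and 17.3 CPM in Eif2A libraries, and 36.2, 23.9, 24.8 and 19.1 CPM in 5xFADTRAP libraries, against 18.1, 11.8, 16.3, 8.97 and 10.8 CPM in TRAP libraries. The groups did not overlap on either background, narrowly so on the Eif2A background, and 5xFAD libraries were the lower on the Eif2A and the higher on the TRAP background. Its interaction was -1.97 ± 0.39 (SE; adjusted p = 0.0366) by edgeR, and the log2 fold change was called on the TRAP background at 1.17 and not on the Eif2A background at -0.80. The interaction call of Cadps was kept in 3 of 16 omissions, with an adjusted p of up to 0.214 in edgeR.

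Afm, which encodes the vitamin E-binding protein afamin, had 32.3, 40.9 and 54.9 CPM in 5xFADEif2A libraries, against 194, 156, 163 and 104 CPM in Eif2A libraries, and 64.3, 68.3, 44.3 and 42 CPM in 5xFADTRAP libraries, against 64.1, 67.7, 114, 97.0 and 43.2 CPM in TRAP libraries. Its Eif2A levels were the highest of the 4 groups in 3 of 4 libraries, and the interaction was -1.60 ± 0.32 (SE; adjusted p = 0.0366) by edgeR, kept in 5 of 16 omissions. In the alternative coding the interaction of Afm was -0.80, not called. Gbas, a mitochondrial protein, had 50.8, 43.9 and 39.4 CPM in 5xFADEif2A libraries, against 65.1, 64.9, 76.0 and 69.6 CPM in Eif2A libraries, and 80.8, 78.8, 51.9 and 53.9 CPM in 5xFADTRAP libraries, against 69.0, 52.3, 47.5, 60.9 and 46.8 CPM in TRAP libraries. Its interaction was -1.0 ± 0.20 (SE; adjusted p = 0.0402) by edgeR, kept in 3 of 16 omissions. The 12 of 14 listed neuron markers in the table took 0.0794% to 0.116% of counts in 5xFADEif2A and 0.114% to 0.147% in Eif2A. They took 0.124% to 0.450% in 5xFADTRAP and 0.121% to 0.173% in TRAP, with none at 0 in any group. Snap25 alone had 3293 and 1837 CPM in 5xFADTRAP replicates 1 and 2, so this share does not speak for each marker. The part of neuron markers in the negative interactions was not tested.

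**Figure D3:**
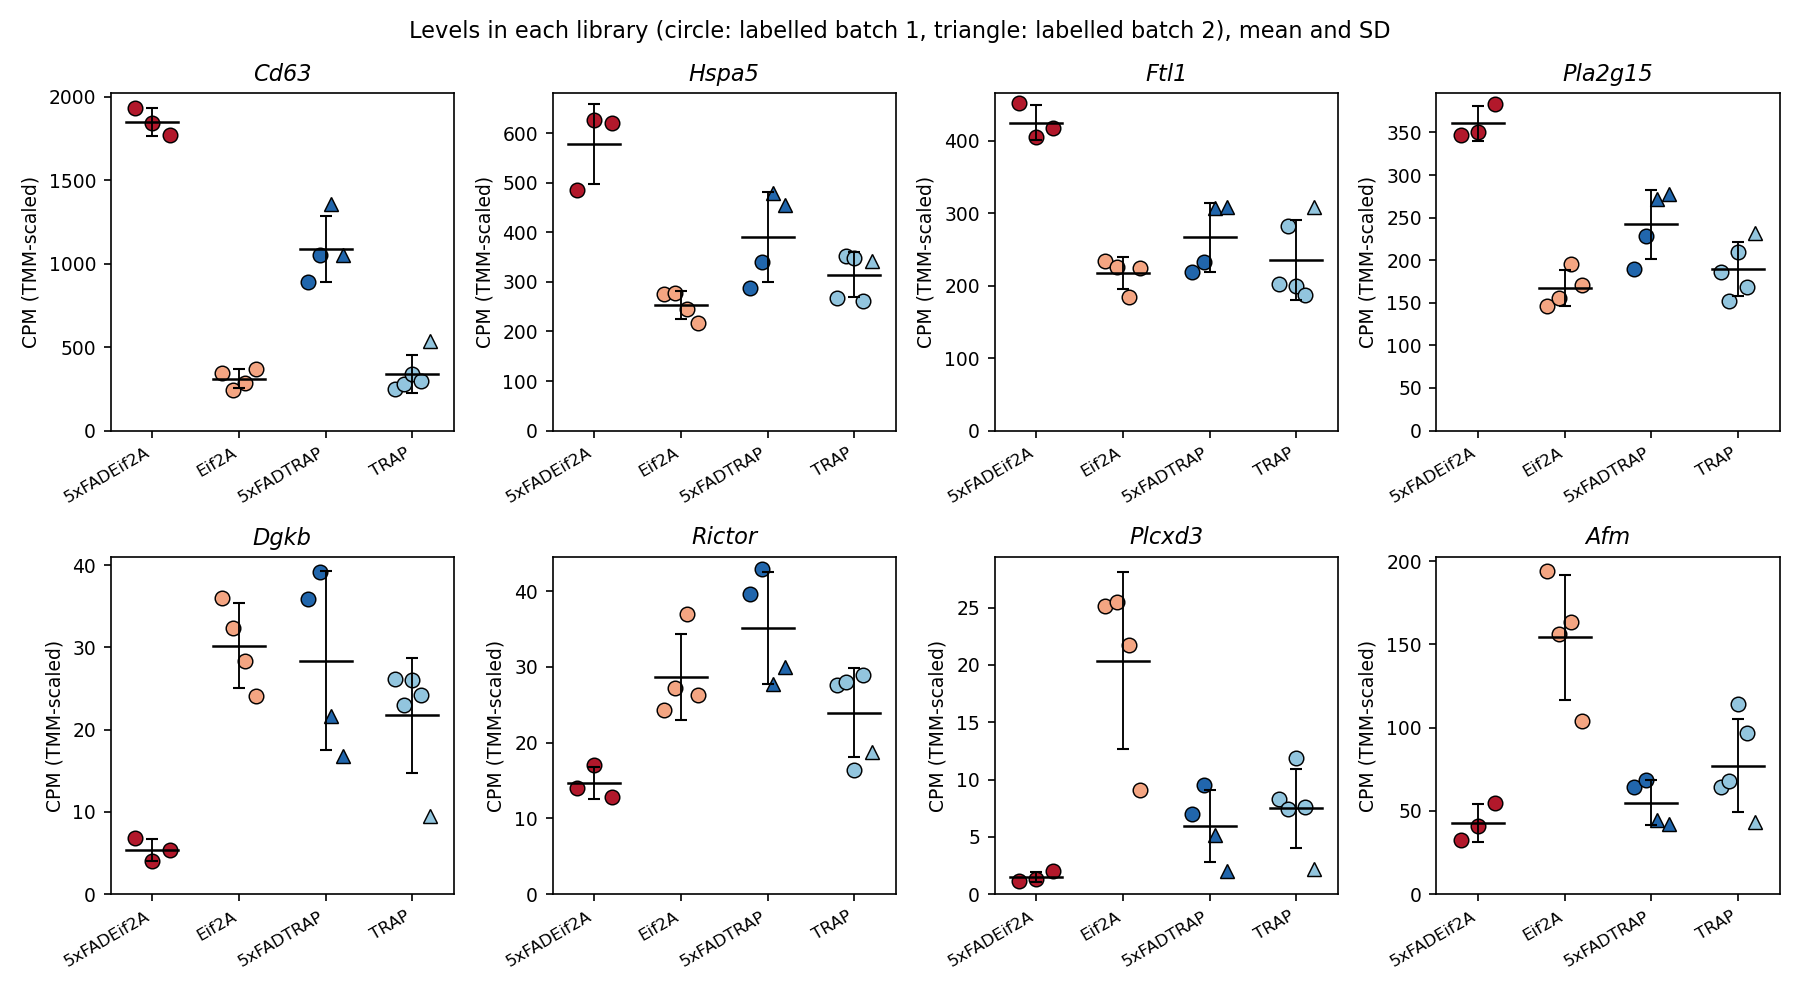
CPM of 8 called genes in each library, by group, with the mean and SD (n = 3 for 5xFADEif2A, 4 for Eif2A and for 5xFADTRAP, 5 for TRAP). Circles are labelled batch 1 and triangles labelled batch 2. For Cd63, Hspa5, Ftl1 and Pla2g15 the 5xFADEif2A libraries lie above all others, and for Dgkb and Plcxd3 they lie below all others.

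Among the 30 called genes whose batch coefficient was also called, Dgkb was the one that kept its call and its sign in both codings. Dgkb (chr12:37817726-38634239), a diacylglycerol kinase, had 6.79, 4.07 and 5.34 CPM in 5xFADEif2A libraries, against 36.1, 32.3, 28.3 and 24 CPM in Eif2A libraries. It had 35.9, 39.2, 21.7 and 16.8 CPM in 5xFADTRAP libraries, against 26.1, 22.9, 26, 24.2 and 9.49 CPM in TRAP libraries. The 5xFADEif2A levels lay below every other library, and TRAP replicate 5 was the lowest of the rest. With batch as labelled the interaction was -3.24 ± 0.30 (SE; adjusted p = 1.90e-05) by edgeR, made of -2.46 ± 0.23 (SE; adjusted p = 8.36e-07) on the Eif2A and 0.78 ± 0.20 (SE; adjusted p = 0.0234) on the TRAP background, and all 16 omissions kept it. With the 5xFADEif2A libraries coded as batch 2 it was -1.99 ± 0.32 (SE; adjusted p = 0.0163) by edgeR. Prkca, a protein kinase C that diacylglycerol activates, had an interaction of -1.62 ± 0.25 (SE; adjusted p = 0.00653) by edgeR, and -0.71 ± 0.27 (SE; adjusted p = 0.262) in the alternative coding. The cell adhesion gene Chl1 had -1.88 with batch as labelled and -1.01 in the alternative coding, the second not called. Prkca and Chl1 both lost the call without 5xFADTRAP replicate 1.

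A set of 6 genes tracked the Gm26561 division library by library. Gm26561 (chr17:70878078-71393284) itself had 531, 413 and 438 CPM in 5xFADEif2A libraries, against 69.5, 45.7, 44.9 and 47.7 CPM in Eif2A libraries, and 46.4, 53.0, 386 and 449 CPM in 5xFADTRAP libraries, against 37.5, 55.7, 59.3, 55.1 and 449 CPM in TRAP libraries, with an interaction of 3.20 ± 0.21 (SE; adjusted p = 1.51e-07) by edgeR. Gphn (gephyrin, a synaptic scaffold), Il31ra (a cytokine receptor), Zc3h7a (a zinc finger protein), Lars2 (the mitochondrial leucyl-tRNA synthetase) and Camk1d (a calcium-dependent kinase) correlated with Gm26561 across the 16 libraries at r = 0.971 to 0.984. All libraries share the division described above, and the correlation is given as a description only. Their interactions were 1.64, 1.75, 1.54, 1.64 and 0.86 on the log2 scale. In the alternative coding they were 0.21, 0.32, 0.17, 0.22 and 0.06, none of them called. That coding was chosen from the division these genes follow, and it subtracts their batch coefficient (1.43 for Gphn, 0.80 for Camk1d). The smaller values are therefore built in, for Gm5829 and Rpl6l below as well. Gm5829 had 0.631, 0.754 and 0 CPM in 5xFADEif2A libraries, against 25.0, 27.0, 28.7 and 25.5 CPM in Eif2A libraries, and 18.5, 24.8, 0.452 and 1.44 CPM in 5xFADTRAP libraries, against 21.2, 18.3, 24.6, 24.3 and 1.19 CPM in TRAP libraries, and Rpl6l had 6.00, 9.04 and 11.8 CPM in 5xFADEif2A libraries, against 0.312, 0, 0.0914 and 0.291 CPM in Eif2A libraries, and 0.579, 1.43, 8.35 and 7.18 CPM in 5xFADTRAP libraries, against 0.259, 0.176, 0.275, 0.413 and 7.79 CPM in TRAP libraries. Their interactions were -5.73 ± 0.57 (SE; adjusted p = 3.80e-05) and 4.80 ± 0.87 (SE; adjusted p = 0.0222) by edgeR, with 9 counts of Gm5829 over the 5xFADEif2A libraries and 7 counts of Rpl6l over the Eif2A libraries, and -1.40 and 0.96 in the alternative coding. The call of Rpl6l was lost without 6 single libraries, with an adjusted p of 0.194 in edgeR without TRAP replicate 5.

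Nup98 and Bcor turned round with the coding. Nup98, a nucleoporin, had 60.1, 115 and 91.6 CPM in 5xFADEif2A libraries, against 32.0, 69.7, 58.2 and 47.1 CPM in Eif2A libraries, and 35.1, 36.3, 183 and 318 CPM in 5xFADTRAP libraries, against 68.8, 65.5, 26.8, 50.6 and 395 CPM in TRAP libraries. The libraries labelled batch 2 had the 3 highest levels, and all 5xFADEif2A levels were below them. Its interaction was 1.51 ± 0.22 (SE; adjusted p = 0.00469) with batch as labelled and -1.88 ± 0.25 (SE; adjusted p = 0.00253) in the alternative coding, both by edgeR. Bcor, whose levels are given above, had 1.47 ± 0.26 (SE; adjusted p = 0.0222) as labelled and -2.57 ± 0.29 (SE; adjusted p = 3.73e-04) in the alternative coding, by edgeR. Mobp, a myelin gene of oligodendrocytes, had 56.7, 78.1 and 86.4 CPM in 5xFADEif2A libraries, against 50.9, 59.5, 97.1 and 60.1 CPM in Eif2A libraries, and 37.7, 28.2, 72.0 and 105 CPM in 5xFADTRAP libraries, against 65.2, 92.6, 54.0, 106 and 164 CPM in TRAP libraries. It had an interaction of 1.34 ± 0.24 (SE; adjusted p = 0.0222) as labelled, in edgeR, and -0.25 in the alternative coding. The 12 oligodendrocyte markers together took 0.0631% to 0.0759% of counts in 5xFADEif2A, 0.0510% to 0.0753% in Eif2A, 0.0533% to 0.0686% in 5xFADTRAP and 0.0553% to 0.0886% in TRAP, none at 0, and their part in the Mobp result was not tested.

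Of the other 16 calls, 6 were positive and 10 negative. Positive interactions were found for Syngr1 (a vesicle membrane protein, 0.81), Mfsd5 (a membrane transporter, 0.78), Rpsa (a protein of the small ribosomal subunit, 0.75), Ppia (cyclophilin A, 0.72), Tmed2 (a cargo receptor between ER and Golgi, 0.72) and Gm6485 (3.46). In the alternative coding these were 0.32, 0.24, 0.02, 0.04, -0.13 and 0.68, none called and Tmed2 with the opposite sign. Negative interactions were found for Prpf8 (the core protein of the spliceosome, -1.37), Ubr3 (a ubiquitin ligase, -2.12), Brd1 (a bromodomain protein, -0.98), Vasp (an actin regulator, -0.67), Car1 (a carbonic anhydrase, -2.30), Aldoart1 (a retrogene of aldolase A, -3.05) and the gene models Gm13456 (-2.05), Gm37486 (-1.53), Gm2965 (-3.01) and Gm21865 (-3.19). The alternative coding gave -0.04, 0.20, 0.26, 0.03, -0.30, 0.05, 0.57, 0.11, -0.60 and -1.03 in that order, with none called and opposite signs for Ubr3, Brd1, Vasp, Aldoart1, Gm13456 and Gm37486. Near copies as defined above covered Ftl1, Gm13456, Gm6485, Rpsa, Pebp1, Car1, Dnajb6, Cd63, Ppia and Tmed2 over 29.2% to 96.5% of their transcripts, and Gm37486 and Gm21865 over 100%.

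With the 5xFADEif2A libraries coded as batch 2, 34 of 13800 genes (0.246%) were called, 9 positive (0.0652%) and 25 negative (0.181%), and 1865 had an unadjusted p below 0.05. On the Eif2A background this coding called 1871 genes for 5xFAD (13.6%), 1008 higher (7.30%) and 863 lower (6.25%). Only Dgkb, Nup98 and Bcor were called in both codings, and only Dgkb with the same sign. Of the 42 genes called with batch as labelled, 32 kept their sign and 27 had less than 0.5 times their labelled size. Keeping the sign is partly built in for genes with an uncalled batch coefficient, because this coding subtracts that coefficient. The 12 such genes all kept their sign, at adjusted p of 0.0630 to 0.320 in edgeR. Among them were -1.36 ± 0.29 (SE; adjusted p = 0.063) for Rictor, 0.62 ± 0.19 (SE; adjusted p = 0.161) for Cd63, 0.61 ± 0.22 (SE; adjusted p = 0.219) for Hspa5 and -2.30 ± 0.65 (SE; adjusted p = 0.13) for Plcxd3.

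The 9 positive calls of the alternative coding included the glycolysis genes Ldha, Pgk1 and Pkm. The genes of this paragraph were named after their values were seen. Fam46c, a poly(A) polymerase, had 472, 428 and 400.2 CPM in 5xFADEif2A libraries, against 143, 113, 139 and 111 CPM in Eif2A libraries. On the TRAP background it had 349, 335, 222 and 225 CPM in 5xFADTRAP libraries, against 158, 162, 133, 144 and 89.5 CPM in TRAP libraries. Both 5xFAD groups lay above their controls without overlap, and the interaction in this coding was 1.2 ± 0.17 (SE; adjusted p = 0.00615) by edgeR, against 0.54 ± 0.16 (SE; adjusted p = 0.232) as labelled. Ldha, the lactate dehydrogenase subunit of glycolytic cells, had 863, 691 and 681 CPM in 5xFADEif2A libraries, against 320.3, 292, 233 and 306 CPM in Eif2A libraries. It had 586, 615, 443 and 435 CPM in 5xFADTRAP libraries, against 251, 298, 359.8, 295 and 240.2 CPM in TRAP libraries. Its interaction was 0.92 ± 0.16 (SE; adjusted p = 0.0282) in the alternative coding and 0.37 ± 0.14 (SE; adjusted p = 0.395) as labelled, both by edgeR. Pgk1 and Pkm, which make ATP in glycolysis, had 1.07 and 1.10 in the alternative coding, with adjusted p of 0.0442 and 0.0442 in edgeR, and 0.71 and 0.54 as labelled, not called. The 25 negative calls included the nuclear proteins Bahcc1 at -3.61 ± 0.36 (SE; adjusted p = 1.76e-04) and Ylpm1 at -2.47 ± 0.33 (SE; adjusted p = 0.00253) by edgeR. For both, as for Bcor, all 5xFADEif2A levels were below the 3 libraries labelled batch 2. They also included the synaptic genes Bsn at -2.0, Shank1 at -2.06 and Grm7 at -2.84, with adjusted p of 0.0442, 0.0484 and 0.0442 in edgeR. The median share of neuron markers was 0.111% in 5xFADEif2A, 0.116% in Eif2A, 0.202% in 5xFADTRAP and 0.144% in TRAP. The synaptic genes did not follow the marker Snap25, which had 3293, 1837, 496 and 611 CPM in 5xFADTRAP replicates 1 to 4. In these libraries Bsn had 17.1, 16.2, 27.1 and 37.9 CPM and Shank1 17.7, 17.2, 36.8 and 55.4. Grm7 had 10.1, 10.5, 22.1 and 13.5 CPM there. The part of neuron markers in these calls was not tested.

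**Figure D4:**
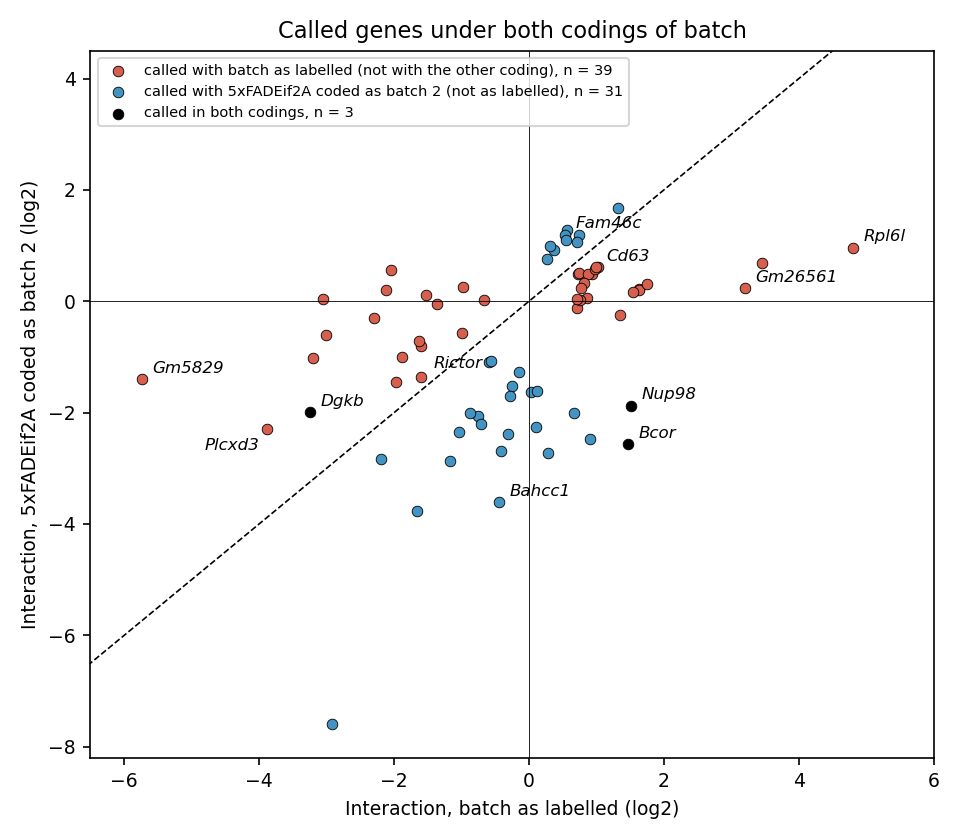
The interaction with 5xFADEif2A coded as batch 2 against the interaction with batch as labelled, for the genes called in either. Red points (39) were called only as labelled, blue points (31) only in the alternative coding, and black points (3) in both. Dgkb is the only black point with the same sign on both axes, and the dashed line marks equal values.

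A further comparison used no batch term. It took the 3 5xFADEif2A and 2 5xFADTRAP libraries high in Gm26561, and the 4 Eif2A and 4 TRAP libraries low in it, 13 in all, and was also chosen after the data were seen. It called 16 of 14262 genes (0.112%), 4 positive (0.028%) and 12 negative (0.0841%), and 1839 had an unadjusted p below 0.05. Of these 16, 14 were also called in the alternative coding and 3 with batch as labelled, namely Dgkb, Nup98 and Bcor. The 13 libraries are part of the 16 libraries of the main fit. They set 5xFADEif2A against 5xFADTRAP libraries labelled batch 2 alone, which makes the same assumption as the alternative coding. The overlap of calls with that coding is therefore largely built in. Dgkb had -2.05 ± 0.33 (SE; adjusted p = 0.0246), Rictor -1.34 ± 0.31 (SE; adjusted p = 0.114), Cd63 0.66 ± 0.16 (SE; adjusted p = 0.114) and Hspa5 0.57 ± 0.21 (SE; adjusted p = 0.276) in this comparison by edgeR. Without any batch term over the 16 libraries no gene was called by edgeR, with 974 at an unadjusted p below 0.05, and batch 1 alone (13 libraries) gave 11 calls. DESeq2, with the same terms as the labelled fit, called 121.

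The ATF4 list holds genes of amino acid supply and stress defence. Of 28 tested genes of the ATF4 and stress response list 0 were called by edgeR, against 0.304% of all genes, so a count of 0 is near the background share. An unadjusted p below 0.05 was found for 3 of the 28 and for 1262 of all 13800 genes. The list's median interaction was 0.15, against 0.02 over all genes tested, and 0.01 against 0.03 in the alternative coding. As labelled, 16 members were positive and 12 negative, where 51.77% of all genes were positive. Members ran from Cth, an enzyme of cysteine synthesis, at -1.81 to Ddit4, an inhibitor of mTOR complex 1, at 1.07. Asns, the asparagine synthetase, had 12.3, 6.03 and 7.22 CPM in 5xFADEif2A libraries, against 6.87, 13.1, 21.1 and 10.2 CPM in Eif2A libraries. It had 37.1, 32.5, 23.5 and 16.6 CPM in 5xFADTRAP libraries, against 10.9, 14.6, 12.8, 16.6 and 19.8 CPM in TRAP libraries. The 5xFADTRAP and TRAP levels of Asns overlapped, as did those of 5xFADEif2A and Eif2A. All 5xFADTRAP levels were above all 5xFADEif2A levels. Its interaction of -1.47 ± 0.51 (SE; adjusted p = 0.343) had the smallest p of the list and was not called by edgeR. Mthfd2, a mitochondrial enzyme of folate metabolism, rose on the TRAP background with 1.16 ± 0.22 (SE; adjusted p = 0.00302) by edgeR, and its change on the Eif2A background was 0.32 ± 0.23 (SE; adjusted p = 0.407), while the interaction was -0.84 ± 0.31 (SE; adjusted p = 0.388), not called. In the alternative coding the change of Mthfd2 on the Eif2A background was 0.86 and its interaction -0.30, neither called. The 20 tRNA synthetases, many of them ATF4 targets, had a median interaction of -0.08, none called, and of 0.41 in the alternative coding. Of the 15 kinases, phosphatase subunits and other genes around eIF2α none was called, and Eif2ak2, which encodes the kinase PKR and is itself raised by interferon, had 1.38 ± 0.56 (SE; adjusted p = 0.45) by edgeR.

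ER chaperones fold newly made secretory proteins. Of 20 tested, 13 rose with 5xFAD on the Eif2A background, where 8.70% of all genes rose, and 4 on the TRAP background, where 4.10% did. Their median log2 fold changes were 0.79 and 0.27. In the alternative coding 10 rose on the Eif2A background, against 7.30% of all genes. The interaction was positive for 19 of 20, against 51.77% of all genes, with a median of 0.50, and Hspa5 was called. Of the 20, 13 had an unadjusted p below 0.05, as did 1262 of all 13800 genes. In the alternative coding the median of the chaperones was 0.41 and none was called. Again 19 of 20 were positive, against 52.05% of all genes. Hyou1, at -0.42 with batch as labelled and 0.25 in the alternative coding, turned with the coding. Genes of this family are known to share an ER stress response element in their promoters, read by ATF6 and XBP1. In the 300 bases around their starts (250 before, 50 after; RefSeq, GRCm38.p6), a search on both strands for CCAAT, then any 9 bases, then CCACG found it in 7 of the 18 with a promoter in the table, against 15 of 10088 tested genes (0.149%). The 7 were Hspa5, Hsp90b1, Calr, Canx, Creld2, Dnajc3 and Pdia6, with interactions of 1.03, 0.52, 0.56, 0.18, 0.87, 0.68 and 0.80 with batch as labelled. In the comparison of 13 libraries without a batch term they were 0.57, 0.58, 0.59, 0.54, 0.09, 0.70 and 0.42, none called. The promoter of Hspa5 (chr2:34771840-34772139, plus strand) is shown because Hspa5 was the called member, with the match in capitals.
Hspa5: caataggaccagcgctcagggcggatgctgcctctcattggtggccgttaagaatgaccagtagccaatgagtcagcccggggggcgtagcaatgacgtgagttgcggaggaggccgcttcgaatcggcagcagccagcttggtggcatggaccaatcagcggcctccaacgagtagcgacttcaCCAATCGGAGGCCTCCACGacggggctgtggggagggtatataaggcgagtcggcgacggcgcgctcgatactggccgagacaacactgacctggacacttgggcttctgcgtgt
The match lies at bases 186 to 204 of this stretch, on the strand of the gene. The ATF4 element TGATGNAAT was found in the promoters of 2 of 25 ATF4 list members and 0 of the 31 called genes with a promoter, against 52 of 10088 tested genes (0.515%).

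Genes of the disease-associated state rose on both backgrounds. Of 28 tested genes 27 rose with 5xFAD on the Eif2A background (24 in the alternative coding) and 26 on the TRAP background, with median log2 fold changes of 2.77 and 1.88. Of all genes, 8.70% rose on the Eif2A background (7.30% in the alternative coding) and 4.10% on the TRAP background. The median interaction of the list was 0.53 with batch as labelled and 0.48 in the alternative coding, and Cd63 was the only member called. Positive values were 23 of 28 and 25 of 28, against 51.77% and 52.05% of all genes. Values ran from Lpl, a lipoprotein lipase, at -0.67 (0.57 in the alternative coding) to Axl, a receptor for dying cells, at 1.90. Of 24 lysosomal genes 21 rose on the Eif2A background (16 in the alternative coding) and 15 on the TRAP background, against the same shares of all genes. The lysosomal genes had medians of 1.31 on the Eif2A and 0.72 on the TRAP background and a median interaction of 0.63 (0.49 in the alternative coding). Of the 24, 23 were positive, against 51.77% of all genes. An unadjusted p below 0.05 was found for 15 of them and for 1262 of all 13800 genes, but none of the 24 was called. Ctsb, the protease cathepsin B, had 11301, 10804 and 10034 CPM in 5xFADEif2A libraries, against 1961, 1824, 2444 and 2185 CPM in Eif2A libraries. It had 6644, 8693, 6459 and 5373 CPM in 5xFADTRAP libraries, against 1955, 2322, 2581, 2072 and 2688 CPM in TRAP libraries. The groups were apart on both backgrounds and the 5xFADEif2A levels were above all 5xFADTRAP levels, yet the interaction of 0.75 ± 0.19 (SE; adjusted p = 0.158) was not called by edgeR. Hexa, a subunit of hexosaminidase, had 0.68, also not called.

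Complement and antigen presentation genes had positive median interactions without a call. The 12 complement genes had a median interaction of 0.54 (0.34 in the alternative coding), with 0.78 ± 0.18 (SE; adjusted p = 0.104) for Itgb2, a subunit of complement receptor 3, by edgeR. The 14 antigen presentation genes had a median of 0.54 (0.62), with 0.75 for the peptide transporter Tap2. Among 17 homeostatic genes the median was 0.36 (0.07), and Trem2, the lipid-sensing receptor that the disease-associated state needs, had 0.63 ± 0.19 (SE; adjusted p = 0.239) by edgeR, not called. Lipid droplet and lipid uptake genes had a median of 0.21 (0.29), with 1.04 for the droplet coat gene Plin2, not called. Of 19 cholesterol synthesis genes, 13 rose with 5xFAD on the Eif2A (6 in the alternative coding) and 9 on the TRAP background. Of all genes, 8.70% rose on the Eif2A (7.30% in the alternative coding) and 4.10% on the TRAP background. The cholesterol synthesis genes had a median interaction of 0.03 (0.32), and Ebp at 0.70 (0.24) was not called. Fatty acid genes had a median of -0.08 (-0.03), with Hacd2, an enzyme of chain elongation, at 0.84, not called. Among 18 inflammatory genes listed, 15 were tested with a median of 0.19 (0.39), and Nfkbia, the inhibitor of NF-κB, had 1.04 ± 0.24 (SE; adjusted p = 0.0986) by edgeR, not called. In the alternative coding Nfkbia had 0.40, not called.

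Interferon response genes depended on the coding. With batch as labelled, 14 of 19 rose with 5xFAD on the Eif2A background, against 8.70% of all genes, and 1 of 19 on the TRAP background, against 4.10%, with median log2 fold changes of 2.0 and 0.48. In the alternative coding 1 of 19 rose on the Eif2A background, against 7.30% of all genes, with a median of 0.66. The interactions as labelled were positive for 19 of 19, against 51.77% of all genes, with a median of 1.2 and none called. An unadjusted p below 0.05 was found for 7 of the 19 and for 1262 of all 13800 genes. In the alternative coding the median of the list was 0.18 and 14 of 19 were positive, against 52.05% of all genes. Bst2, the antiviral tetherin, had 1.06 ± 0.35 (SE; adjusted p = 0.313) as labelled and 0.06 ± 0.37 (SE; adjusted p = 0.962) in the alternative coding by edgeR. Its change on the Eif2A background was 1.28 as labelled (adjusted p = 0.00219) and 0.28 in the alternative coding (adjusted p = 0.679) by edgeR. Oas1a, a sensor of double-stranded RNA, had interactions of 1.46 and 0.16. On the Eif2A background Oas1a changed by 2.37 as labelled (adjusted p = 4.80e-04), and the value in the alternative coding was 1.07 (adjusted p = 0.276), by edgeR. The median batch coefficient of the list was 1.21. Libraries labelled batch 2 differed among themselves. Bst2 had 338 CPM in 5xFADTRAP replicate 4, against 149 in replicate 3 and 156 in TRAP replicate 5. Oas1a had 67.7, 27.5 and 11.5 CPM in the same libraries. In 5xFADTRAP replicates 1 and 2, Bst2 had 114 and 88.8 CPM and Oas1a 17.7 and 12.4. The list took 0.0399% to 0.185% of counts in 5xFADTRAP, with a median of 0.0651%, and 0.0370% to 0.0698% in TRAP.

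Metabolic and translation genes depended on the coding as well. Of 20 glycolysis genes, 13 rose on the Eif2A (14 in the alternative coding) and 15 on the TRAP background, with medians of 1.11 and 0.82. Of all genes, 8.70% rose on the Eif2A (7.30% in the alternative coding) and 4.10% on the TRAP background. The median interaction of the glycolysis genes was 0.23 as labelled and 0.59 in the alternative coding, in which Ldha, Pgk1 and Pkm were called. The 72 ribosomal protein genes had a median of 0.08 as labelled, with Rpsa called, and -0.43 in the alternative coding. The 7 mitochondrially encoded genes that passed the filter had medians of 0.63 and -0.97, with 1.08 and -0.85 for mt-Co1, a subunit of cytochrome oxidase. The 28 nuclear genes of oxidative phosphorylation stayed near 0 in both, at -0.11 and -0.10. Immediate-early genes, which rise within minutes of stimulation, had medians of 0.59 and -0.02, with 1.41 and -0.13 for Egr1. Among 15 oxidative stress genes the medians were 0.23 and 0.19, with Ftl1 called as labelled, and the 21 cell cycle genes had 0.15 and 0.46, none called.

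**Figure D5:**
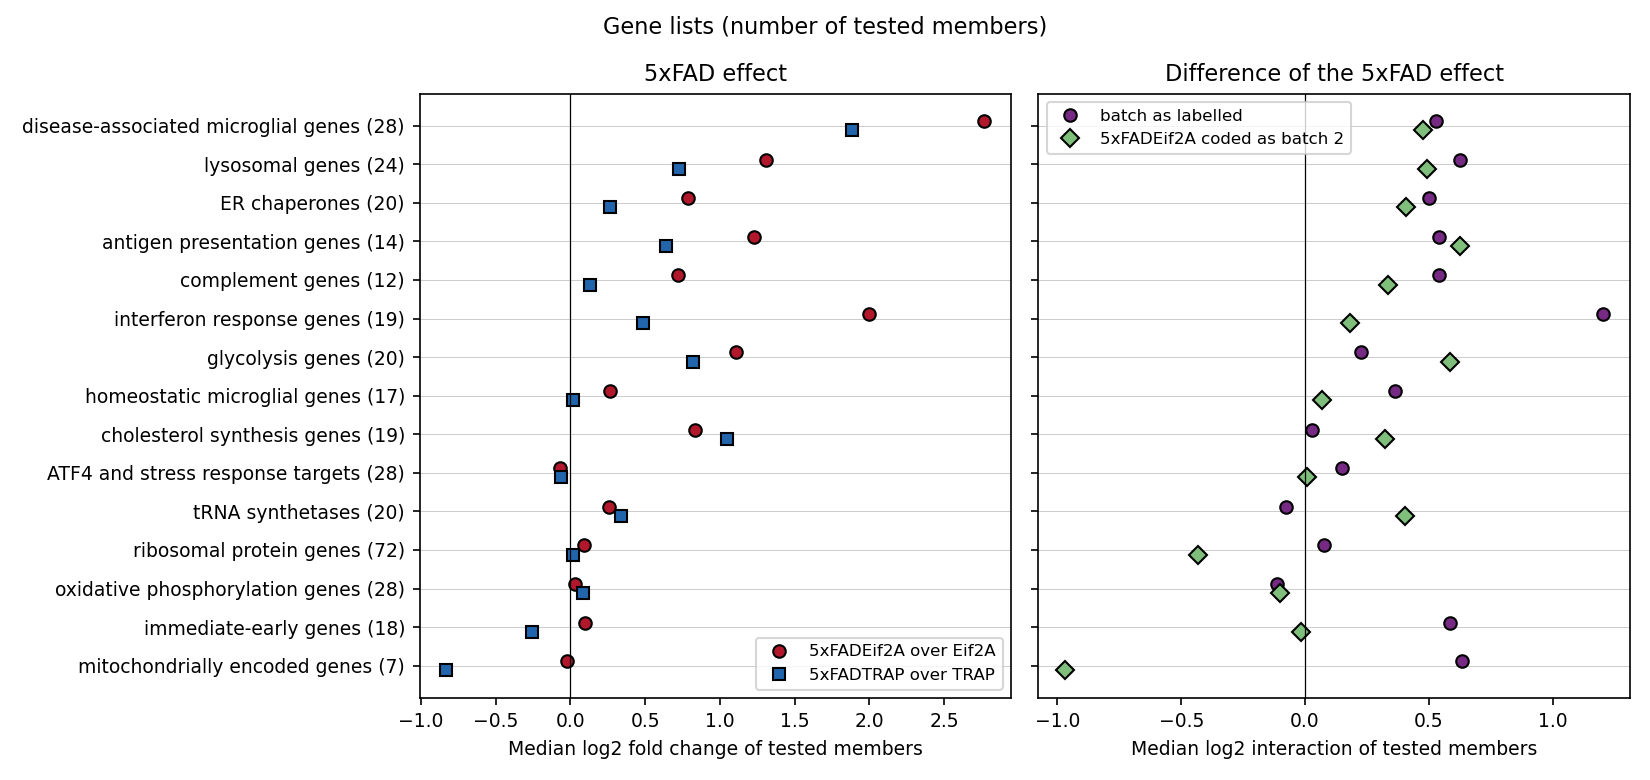
Medians over the tested members of 15 gene lists. The left panel gives the log2 fold change of 5xFADEif2A over Eif2A (circles) and of 5xFADTRAP over TRAP (squares), and the right panel the interaction with batch as labelled (circles) and with 5xFADEif2A coded as batch 2 (diamonds). Interferon, ribosomal, immediate-early and mitochondrially encoded genes move most between the codings, while disease-associated, antigen presentation, ER chaperone and lysosomal genes move least among the lists with a labelled median above 0.4.

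The neuron marker Snap25 differed between libraries. Snap25, a protein of synaptic vesicle fusion, had 629.6, 429 and 520.5 CPM in 5xFADEif2A libraries, against 599, 490.4, 627 and 488 CPM in Eif2A libraries. It had 3293, 1837, 496 and 611 CPM in 5xFADTRAP libraries, against 520.3, 684, 677, 726 and 547 CPM in TRAP libraries. The levels in 5xFADTRAP replicates 1 and 2 were far above all others and above those of Cx3cr1 in the same libraries (492 and 704 CPM). Snap25 rose on the TRAP background with 1.37 ± 0.32 (SE; adjusted p = 0.0197) by edgeR, and its interaction was -1.42 ± 0.47 (SE; adjusted p = 0.33), not called, and -0.09 in the alternative coding. Without TRAP replicate 5 the interaction was called at -2.05 (adjusted p = 0.00364 in edgeR). The 12 neuron markers tested had a median interaction of -0.44 (-0.16 in the alternative coding), and 1 of them rose on the TRAP background, where 4.10% of all genes did. Stmn2, a neuronal tubulin regulator, had -0.89 ± 0.29 (SE; adjusted p = 0.286) by edgeR, not called. It had 51.6, 57.8, 63.0 and 56.6 CPM in 5xFADTRAP replicates 1 to 4, without the excess that Snap25 showed in replicates 1 and 2. The astrocyte marker Aldoc, an aldolase, rose on the TRAP background with 0.86 ± 0.20 (SE; adjusted p = 0.0117) by edgeR, and its interaction was -0.65 ± 0.29 (SE; adjusted p = 0.492), not called, and 0.20 in the alternative coding. The part of neuronal and astrocytic RNA in the interactions was not tested. Astrocyte markers had medians of -0.06 and 0.01, oligodendrocyte markers 0.64 and 0.24 with Mobp called as labelled, oligodendrocyte precursor markers 0.22 and 0.82, and border macrophage markers 0.49 and 0.82 with none called. Endothelial, mural, lymphocyte and monocyte or neutrophil markers each took at most 0.00414% of counts in any library, and 1 to 5 of their listed members were at 0 in some groups. Fewer cells of a type and less RNA per cell cannot be told apart in these bulk libraries.

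The genes that the mouse lines carry or alter were measured in every group. Eif2s1 had 181, 178 and 174 CPM in 5xFADEif2A libraries, against 138, 119.8, 119 and 127 CPM in Eif2A libraries, and 128, 160.5, 155 and 122 CPM in 5xFADTRAP libraries, against 123, 111, 120.5, 105 and 112 CPM in TRAP libraries. It rose with 5xFAD on both backgrounds, by 0.52 ± 0.10 (SE; adjusted p = 0.00206) and 0.37 ± 0.10 (SE; adjusted p = 0.0346) by edgeR, with an interaction of 0.16 ± 0.14 (SE; adjusted p = 0.808) that was not called. The Eif2A groups were apart, and 5xFADTRAP and TRAP overlapped. Counts per gene do not tell the mutated allele from the normal one, so these values do not check the genotype. Thy1, whose promoter drives the 5xFAD transgenes, had 33.0, 17.9 and 33.8 CPM in 5xFADEif2A libraries, against 6.4, 4.62, 10.3 and 9.99 CPM in Eif2A libraries, and 39.4, 33.0, 26 and 22.3 CPM in 5xFADTRAP libraries, against 6.21, 5.47, 7.70, 7.22 and 10.7 CPM in TRAP libraries, and was apart between 5xFAD and control libraries on both backgrounds. App, which encodes the amyloid precursor, had 261, 197 and 210.0 CPM in 5xFADEif2A libraries, against 118, 114, 147 and 131 CPM in Eif2A libraries, and 325, 405, 233 and 187 CPM in 5xFADTRAP libraries, against 122, 152, 224, 107 and 212 CPM in TRAP libraries, apart on the Eif2A background and overlapping on the TRAP background. Both rose with 5xFAD on both backgrounds, and their interactions of -0.27 for Thy1 and -0.14 for App were not called by edgeR. Reads of the human transgenes that align to the mouse gene cannot be told from mouse reads here.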

How the data were processed

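RNA was taken from tagged ribosomes of cortex and sequenced, with the SMART-Seq mRNA LP kit used to prepare libraries, per the labels' protocols. Reads were trimmed with Trim Galore, aligned to mm10 with HISAT2 2.2.1 and counted with featureCounts 2.0.3, per the submitters' processing notes; the annotation, strand setting and treatment of reads with several matches are not given in the sources used here. The deposited table of raw counts per gene was the one tested. The deposited RPKM table was used only to compare the gene lengths behind it with the annotation and gave no test.

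Counts of the 16 libraries were fitted with edgeR 4.0.16 in R 4.3.3 (TMM factors, filterByExpr by group with a minimum count of 10 and a minimum total of 15, robust quasi-likelihood F-tests, two-sided) on group, labelled batch and labelled sex, leaving 10 residual degrees of freedom. P-values were Benjamini-Hochberg adjusted over 13800 genes, with a threshold of 0.05. An SE is the absolute log2 value divided by the square root of F. The number of libraries in each group equals the number of mice in the series' design text. Members, gene lists and alternatives were chosen with earlier results of these data known. All called genes are named; from the lists, members called or with the smallest p, and others named after their values were seen. Limma 3.58.1 (voom) and DESeq2 1.42.0 served as alternatives. Transcripts came from GENCODE M21, which held 21439 of the 22327 symbols, and promoters from RefSeq (GRCm38.p6). The scripts were tested on simulated counts.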

Additional observations from a re-analysis of the deposited data

Results flagged for a closer look

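Single libraries stood apart within their group for 8 of 84 sets of values examined, by the gap to the nearest library as a share of the group's range. Chance would flag about 1 set in 20, a rate that does not hold here, since some genes were chosen after their values were seen and several follow the labelled batch. Of the 8, 6 were TRAP replicate 5, the only TRAP library labelled batch 2. Its gap was 0.947 of the range for Gm26561, 0.731 for Gm5829, 0.969 for Rpl6l, 0.809 for Dgkb, 0.886 for Nup98 and 0.892 for Bcor. It was the lowest library for Gm5829 and Dgkb and the highest for the other 4 genes. Eif2A replicate 1 was high in Gm26561, with a gap of 0.885. TRAP replicate 2 was low in Cx3cr1, with a gap of 0.855.

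The interaction was called for 42 genes with batch as labelled, for 0 without a batch term and for 1 with all 29 libraries in the fit. It also holds the VEGF and ASV that only 5xFADTRAP mice received, so it is not a measure of the background alone. On the log2 scale the positive ones were Rpl6l 4.80, Gm6485 3.46, Gm26561 3.20, Il31ra 1.75, Gphn 1.64, Lars2 1.64, Zc3h7a 1.54, Nup98 1.51, Bcor 1.47, Mobp 1.34, Hspa5 1.03, Cd63 0.99, Shisa5 0.98, Ftl1 0.93, Pla2g15 0.88, Camk1d 0.86, Syngr1 0.81, Mfsd5 0.78, Rpsa 0.75, Pebp1 0.74, Tmed2 0.72, Ppia 0.72 and Dnajb6 0.72. The negative ones were Gm5829 -5.73, Plcxd3 -3.88, Dgkb -3.24, Gm21865 -3.19, Aldoart1 -3.05, Gm2965 -3.01, Car1 -2.30, Ubr3 -2.12, Gm13456 -2.05, Cadps -1.97, Chl1 -1.88, Prkca -1.62, Rictor -1.60, Afm -1.60, Gm37486 -1.53, Prpf8 -1.37, Gbas -1.0, Brd1 -0.98 and Vasp -0.67. With 5xFADEif2A coded as batch 2 only Dgkb was called with the same sign.

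In the 13 libraries of the iPKR groups, which entered only the fits with all 29 libraries, 4 were high in Gm26561 at 202.6 to 287.6 CPM per library total. All 4 were labelled batch 2, and the other 2 iPKR libraries labelled batch 2 were at 70.1 and 38.7 CPM.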

How the results depend on the processing

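The count of 42 interaction calls was 42 with RLE factors, 37 with upper-quartile factors, 42 without a low-count filter, 47 with a stricter filter, 37 without sex, 39 with limma-voom, 35 with sex from Y-linked counts and 34 with 5xFADEif2A coded as batch 2. It was 0 without a batch term and 0 without batch and sex terms (974 and 942 at an unadjusted p below 0.05 in edgeR), 11 in batch 1 alone, 121 with DESeq2, 1 with all 29 libraries in the fit and 16 in the comparison of 13 libraries without a batch term. Leaving out single libraries gave 9 to 64. The Eif2A calls (2090) were 499 with all 29 libraries and 1255 to 2146 without single libraries. The TRAP calls (958) were 491 without a batch term, 460 without batch and sex terms, 127 with all 29 libraries and 342 to 1027 without single libraries, the lowest without 5xFADTRAP replicate 2. The cause of these moves was not tested.

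A replicate block gave 19 interaction, 1774 Eif2A and 685 TRAP calls with 6 residual degrees of freedom. Same-numbered libraries correlated at -0.107 to 0.116 over 21 pairs, 1 of them above 0.1, so the numbers pair nothing here.

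With 5xFADEif2A coded as batch 2, and in the 13 libraries, the sign turned for Gm37486 (0.11 and 0.12), Gm13456 (0.57 and 0.63), Ubr3 (0.20 and 0.31), Tmed2 (-0.13 and -0.14), Vasp (0.031 and 0.021), Nup98 (-1.88 and -1.85), Mobp (-0.25 and -0.27), Brd1 (0.26 and 0.27), Bcor (-2.57 and -2.59), Dars (0.30 and 0.32), Egr1 (-0.13 and -0.11), mt-Co1 (-0.85 and -0.98), Ylpm1 (-2.47 and -2.51), Hyou1 (0.25 and 0.20), Lpl (0.57 and 0.58), Aldoc (0.20 and 0.32) and App (0.27 and 0.42). Aldoart1 turned in the recoded fit alone (0.049) and Thy1 (0.025) and Snap25 (0.18) in the 13 libraries alone. The 13 libraries are among those of the recoded fit and share its assumption, so the paired values are not independent. Ylpm1 also turned without a batch term (-0.49) and without batch and sex terms (-0.45). Leaving out single libraries gave -0.67 to 0.0036 for Thy1 and -0.55 to 0.098 for App, which was 0.031 without Eif2A replicate 3. No alternative other than these codings turned any of the 42 called genes. Low counts limit Gm5829, Rpl6l and Plcxd3.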

Other observations

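Lysosomal genes are known to share the CLEAR element in their promoters. In the same 300-base windows, TCACGTGA was found in 4 of 18 lysosomal genes with a promoter in the table (Atp6v1a, Ctsa, Ctsd and Mcoln1; 22.2%), against 2.14% of 10088 tested genes. It was found in 1 of the 31 interaction calls with a promoter in the table. These matches are a description only.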
